A study of Mus musculus with 10 samples.

Results

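The RNA-seq series held 10 samples of mpkCCD cells, a mouse line with features of collecting duct principal cells, and 5 of them are described here. These were 2 samples of intact clone 1, 2 samples of intact clone 2 and 1 sample of the parental (wild-type) line, which served as the reference for direction. The members were chosen by sample label and by level, as genes with a mean of at least 1 TPM over the 5 samples, and 13010 of the 55414 genes in the table passed. All 5 samples were kept for 7 days with 0.1 nM dDAVP, which activates the vasopressin V2 receptor, and none carried a Camk2d mutation. Both clones had been through the same steps as the Camk2d-KO clones, with a plasmid for Cas9, GFP and a Camk2d guide, sorting of single GFP-positive cells and outgrowth, but kept CAMK2D protein and an unmutated sequence at the target. The parental line had not been through these steps. Each clone is thus 1 founder cell, and the labels give neither the guide each intact clone received nor whether the paired samples were separate cultures.

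Principal cells take up sodium through the epithelial sodium channel and water through the vasopressin-regulated channel aquaporin-2, and their tight junctions are sealed by claudins. In an immortalized line, a clone grown from a single cell carries the genome and the expression state of that founder, so clones that share an editing history can still differ in expression. The comparison addressed how far 2 clones of 1 principal cell line, both with Camk2d intact, stood apart.

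The targeted gene was checked first. Camk2d (ENSMUSG00000053819), which encodes the delta subunit of calcium/calmodulin-dependent kinase 2, was at 141 TPM in the parental line, at 134 and 135 TPM in clone 1 and at 129 and 123 TPM in clone 2. All 5 samples thus held the transcript, and the log2 difference between the clones was -0.096 (standard error 0.042, limma adjusted p = 0.291). Camk2g, the gamma subunit, was at 6.08 TPM in the parental line, at 4.27 and 4.10 in clone 1 and at 4.11 and 6.99 in clone 2, with overlapping clones. Camk2a did not reach the level filter, with at most 0.03 TPM in any sample. The water channel Aqp2 was at 5502 TPM in the parental line, at 3773 and 4084 TPM in clone 1 and at 4338 and 3890 TPM in clone 2. The clones overlapped for Aqp2, and the log2 difference was 0.065 (adjusted p = 0.638).

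Most listed markers of the principal cell passed the level filter, though some were low. Of 15 markers on a list for this cell type, 13 passed the level filter, and their summed level was 15120 TPM in the parental line, 13790 and 14170 in clone 1, and 13790 and 13500 in clone 2. Avpr2, the V2 receptor, lay between 222 and 252 TPM, and Gata3, a collecting duct transcription factor, between 240 and 258 TPM. Scnn1b, the beta subunit of the sodium channel, was at 0.20 to 0.32 TPM in all 5 samples, below the filter. Of 20 intercalated cell markers, 9 passed the level filter, and their list summed to 519 TPM in the parental line, 420 and 421 in clone 1, and 354 and 356 in clone 2. Single genes weighed on these sums. Spink8 was at 148 and 141 TPM in clone 1 and at 33.6 and 33.8 in clone 2, while Car2 was higher in clone 2. The ammonia transporter Rhcg was at 88.8 TPM in the parental line and at no more than 0.69 TPM in the clones. Car2, Spink8 and the proton pump subunits Atp6v1b1 (23.6 to 30.7 TPM) and Atp6v0a4 (19.3 to 29.0 TPM) were present in all 5 samples, whereas the defining factor Foxi1 and the anion exchangers Slc4a1 and Slc26a4 were at no more than 0.03 TPM and Atp6v0d2, Atp6v1g3, Kit, Insrr and Oxgr1 were listed at 0. Of 20 mesenchymal markers, 5 passed the filter, among them Fn1 (31.9 to 58.3 TPM) and S100a4 (39.1 to 56.2 TPM), and 8 including Vim were listed at 0 in all 5 samples. Of 9 endothelial markers, Egfl7 passed (52.3 to 70.0 TPM) and 4 including Cdh5 were listed at 0. Of 9 leukocyte markers, Csf1r (9.77 to 16.8 TPM) and Cd68 (3.93 to 5.54 TPM) passed and 3 including Tyrobp were listed at 0. Of 14 proximal tubule markers, Lrp2 passed (7.54 to 12.8 TPM) and 8 including Slc34a1 were listed at 0. None of the tested markers of these 4 cell types was called between the clones, too few markers to set against the 3.34% called over all tested genes, and their part in the results was not tested. A value listed at 0 may be a failed estimate, since mt-Co2, mt-Co3 and mt-Atp6, which every cell uses, were also listed at 0.

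Within a clone, the samples were closer to each other than to those of the other clone. The median absolute log2 difference of a gene was 0.0857 between the samples of clone 1 and 0.0839 between those of clone 2, whereas the 4 pairs of samples from different clones gave 0.121 to 0.129. The parental line stood at 0.111 to 0.123 from the 4 clone samples. The standard deviation of the log2 difference set the pairs less far apart. It was 0.4559 within clone 1 and 0.4061 within clone 2, against 0.4714 to 0.4996 between samples of different clones. Genes with a 2-fold difference also occurred within a clone, 231 (1.78%) in clone 1 and 180 (1.38%) in clone 2. Pairs from different clones had 308 to 336 such genes. The number of reads behind a TPM value is not known. Between 19499 and 20052 genes were above 0 in a sample, and genes of the mitochondrial genome took 0.944% of the TPM in the parental line, 0.803% and 0.814% in clone 1, and 0.986% and 1.00% in clone 2.

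Between the clones, 435 of 13010 genes differed at a limma adjusted p under 0.05 (3.34%). Clone 2 was higher for 264 of them (2.03%) and lower for 171 (1.31%). The largest differences among protein-coding genes with a level above 0 in both clones were in Cldn8, Sult1c2, Ramp3, Sult1d1 and Cxcl5, which were higher in clone 2, and in Samd12, Aqp4, Spata6, Slco3a1 and Enox2, which were lower in clone 2. Of the 435 genes, 91 (0.699% of all tested) also differed by at least 2-fold on the log2(TPM + 1) scale. The 2 samples of clone 2 lay above both of clone 1 for 2804 genes (21.6%) and below both for 3995 (30.7%), and the median log2 difference over all genes was -0.026. The spread in this test came from 2 samples per clone, and an exact permutation test of 2 against 2 samples cannot go below p = 0.333. With clone 2 sample 1 or sample 2 left out, limma called 0 genes, although 1985 and 1867 genes had an unadjusted p under 0.05 (2767 with all samples), and with clone 1 sample 1 or sample 2 left out it called 48 (4 higher, 44 lower) and 41 (2 higher, 39 lower), of which 10 and 8 were among the 435.

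**Figure D1:**
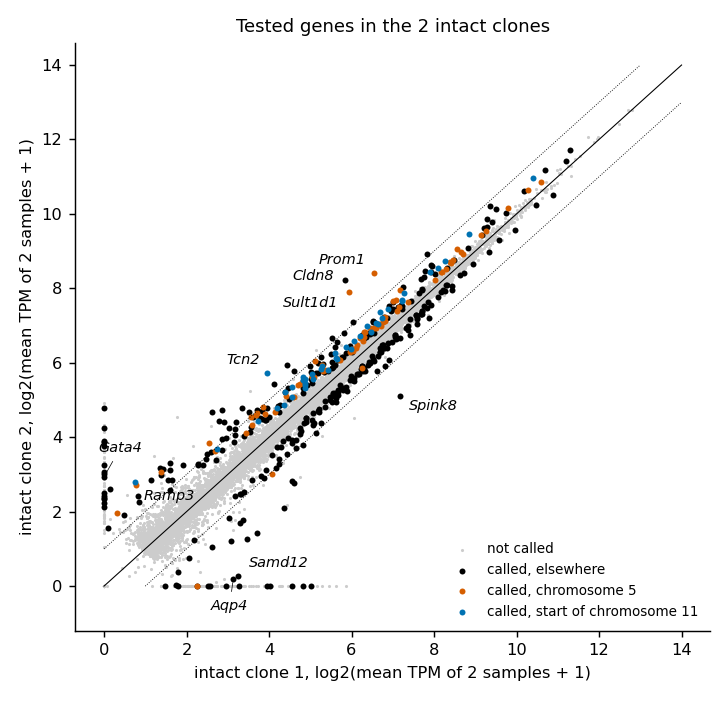
Mean level of each tested gene in intact clone 1 (horizontal axis) and intact clone 2 (vertical axis), each as log2(mean TPM of 2 samples + 1). The solid line marks equal levels and the dotted lines a 2-fold difference; coloured and black points are the 435 genes called by limma, most of which lie inside the dotted lines.

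Tight junction and transport genes held the largest differences among genes with a known place in the collecting duct. Cldn8, a claudin of the collecting duct barrier, was at 505 TPM in the parental line, at 52.4 and 59.8 TPM in clone 1 and at 299.7 and 296.5 TPM in clone 2. Clone 1 was far below both other lines, and the log2 difference between the clones was 2.39 (standard error 0.070, adjusted p = 0.00344). Cldn2, which forms cation pores in leaky epithelia, was at 16.1 TPM in the parental line, at 10.9 and 10.1 in clone 1 and at 23.9 and 25.1 in clone 2, a log2 difference of 1.15 (adjusted p = 0.0125). Cldn12 was also higher in clone 2, by a log2 value of 0.34, and Tjp3, which encodes the junction scaffold ZO-3, was lower by -0.35. These were the 4 called genes of 34 tested claudin and junction genes, beside 3.34% of all tested genes, and the list's median log2 difference was -0.049. The clones did not overlap for 16 of the 34 with clone 2 lower and for 5 with clone 2 higher, beside 30.7% and 21.6% of all tested genes.

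Among genes of sodium, potassium and chloride transport, 1 of 32 tested was called higher in clone 2 and 3 lower, beside 2.03% and 1.31% of all tested genes. Bsnd encodes barttin, an accessory subunit of epithelial chloride channels. Bsnd was at 25.0 TPM in the parental line, at 17.9 and 17.9 in clone 1 and at 8.63 and 8.89 in clone 2, so that neither clone reached the parental level, with a log2 difference of -0.96 between the clones (adjusted p = 0.0143). Fxyd2, the gamma subunit of the sodium pump, was at 170 TPM in the parental line, at 234 and 237 in clone 1 and at 142 and 150 in clone 2 (log2 difference -0.69, adjusted p = 0.0119). Fxyd5, a related regulator of the pump, was higher in clone 2, at 13 and 14.3 TPM against 8.45 and 7.46 (log2 difference 0.71, adjusted p = 0.0470). The median log2 difference of the 32 genes was -0.0076, beside -0.026 over all genes.

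Subunits of the epithelial sodium channel differed in opposite directions. Scnn1a, the alpha subunit, was higher in clone 2, at 180 and 193 TPM against 147 and 146 in clone 1 and 172 in the parental line (log2 difference 0.35, adjusted p = 0.0386). Scnn1g, the gamma subunit, was lower in clone 2, at 13.4 and 14.7 TPM against 23.6 and 24.6 in clone 1 and 20.6 in the parental line (log2 difference -0.74, adjusted p = 0.0255). Aqp4, a water channel of the basolateral membrane, was at 3.31 TPM in the parental line, at 7.00 and 8.54 in clone 1 and at 0.10 and 0.18 in clone 2 (log2 difference -2.94, standard error 0.16, adjusted p = 0.0106). Aqp4 was thus near 0 in clone 2 alone. With Scnn1a, Scnn1g and Aqp4, 3 of 13 tested principal cell markers passed, beside 3.34% of all tested genes. None of 38 tested genes of vasopressin and cAMP signalling passed at the adjusted threshold by limma, which at 3.34% over all genes is near the background for a list of this size, and the largest differences among them were in Sik1 (0.48, adjusted p = 0.182) and Jun (-0.46, adjusted p = 0.0532).

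Spink8, a serine protease inhibitor gene on the intercalated cell list, was at 60.6 TPM in the parental line, at 148 and 141 in clone 1 and at 33.6 and 33.8 in clone 2. Its log2 difference of -2.07 had a standard error of 0.047 and an adjusted p of 0.00211. The lines were in separate places, with the parental line between the clones. Car2, carbonic anhydrase 2, was at 298 TPM in the parental line, at 208 and 211 in clone 1 and at 244 and 248 in clone 2, with a log2 difference of 0.23 (adjusted p = 0.0454).

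**Figure D2:**
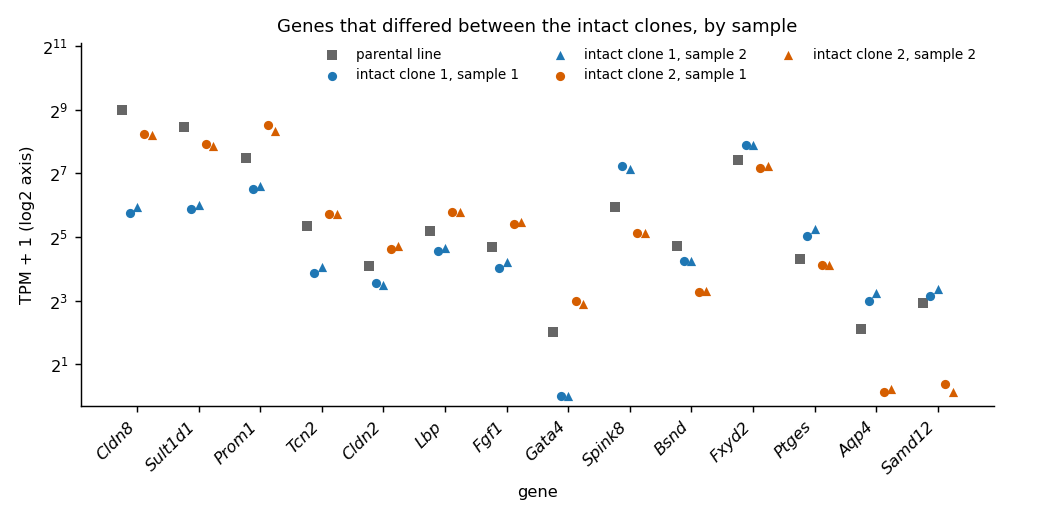
TPM + 1 of 14 genes called between the clones, on a log2 vertical axis, with 1 symbol per sample (grey squares, parental line; blue, intact clone 1; orange, intact clone 2). The 2 samples of a clone sit close together for each gene, and the clones do not overlap.

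Other genes with large differences served varied functions. Prom1, which encodes the apical membrane protein prominin-1, was at 177 TPM in the parental line, at 90.1 and 96.1 in clone 1 and at 362 and 320 in clone 2, a log2 difference of 1.86 (adjusted p = 0.00710). Sult1d1, a cytosolic sulfotransferase, was at 349 TPM in the parental line, at 57.8 and 63.3 in clone 1 and at 242 and 234 in clone 2, a log2 difference of 1.96 (adjusted p = 0.00344). As for Cldn8, clone 1 was the line that stood apart. Slco3a1, an organic anion transporter, was at 16.1 TPM in the parental line, at 17.9 and 20.97 in clone 1 and at 2.97 and 3.59 in clone 2, a log2 difference of -2.25 (adjusted p = 0.0112). Samd12 was at 6.56 TPM in the parental line, at 7.84 and 9.28 in clone 1 and at 0.31 and 0.10 in clone 2 (log2 difference -2.99, adjusted p = 0.0107). For Slco3a1 and Samd12, clone 2 was the line that stood apart. Selenop, a selenium carrier, was at 5.73 TPM in the parental line, at 9.51 and 8.78 in clone 1 and at 26.9 and 26.1 in clone 2, and both clones lay above the parental line (log2 difference between the clones 1.44, adjusted p = 0.0111).

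A minority of proliferation genes was called, in 1 direction. Of 38 tested genes on this list, 14 were called lower in clone 2 and 0 higher, beside 1.31% and 2.03% of all tested genes, and the list's median log2 difference was -0.33 beside -0.026 over all genes. The clones did not overlap, with clone 2 lower, for 29 of the 38 and, with clone 2 higher, for 2, beside 30.7% and 21.6% of all tested genes. Top2a, the topoisomerase that resolves sister chromatids, was at 138 TPM in the parental line, at 165 and 165 in clone 1 and at 121 and 112 in clone 2 (log2 difference -0.50, adjusted p = 0.0238). Cdc20, an activator of the anaphase-promoting complex, was at 165 TPM in the parental line, at 211 and 207 in clone 1 and at 159 and 157 in clone 2 (log2 difference -0.41, adjusted p = 0.0174). Birc5, or survivin, was at 190.3 TPM in the parental line, at 247 and 241 in clone 1 and at 187 and 189 in clone 2 (log2 difference -0.38, adjusted p = 0.0196). For these genes the parental line lay below clone 1 and near or above clone 2.

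Aurkb, a mitotic kinase, was lower in clone 2 by -0.50, Mki67, the Ki-67 proliferation antigen, by -0.50, and Ube2c, a mitotic ubiquitin-conjugating enzyme, by -0.31. The others called were Ccnb2, Ccna2, Cenpe, Cenpf, Kif11, Kif20a, Tpx2 and Mybl2, with log2 differences between -0.49 and -0.35. Foxm1, a transcription factor of the G2 phase (-0.50), and the mitotic kinase Plk1 (-0.35) did not pass (adjusted p = 0.0927 and 0.128). The 6 subunits of the replicative helicase, Mcm2 to Mcm7, did not pass either, with log2 differences from -0.16 in Mcm5 to 0.046 in Mcm7 (adjusted p = 0.114 and 0.615). Pcna, the replication clamp, was at 279 and 280 TPM in clone 1 and at 281 and 272 TPM in clone 2, and these overlapped. Ccnd1, cyclin D1, was at 13.6 and 11.2 TPM in clone 1 and at 16.0 and 19.2 TPM in clone 2 (log2 difference 0.47, adjusted p = 0.151). The summed level of the list was 6698 TPM in the parental line, 7674 and 7415 in clone 1, and 6720 and 6555 in clone 2, and culture density at harvest was not analysed here.

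**Figure D3:**
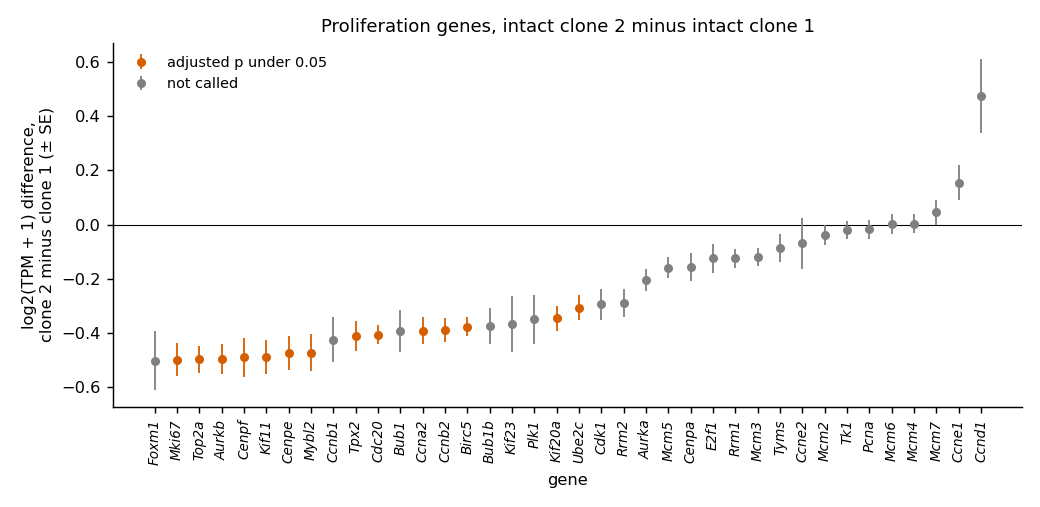
Log2(TPM + 1) difference between intact clone 2 and intact clone 1 (vertical axis, bars ± 1 standard error from limma) for the 38 tested proliferation genes, in order of the difference. The 14 orange genes passed an adjusted p under 0.05 and lie between -0.50 and -0.31, while Pcna and Mcm7 lie near 0.

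Genes that process foreign compounds and glutathione were mostly higher in clone 2 where they were called. Of 31 tested, 8 were called higher in clone 2 and 1 lower, beside 2.03% and 1.31% of all tested genes, with a list median of 0.13. Ephx1, microsomal epoxide hydrolase, was at 266 TPM in the parental line, at 246 and 251 in clone 1 and at 390 and 389 in clone 2, a log2 difference of 0.65 (adjusted p = 0.00965). Adh7, an alcohol dehydrogenase that also acts on retinol, was at 51.2 TPM in the parental line, at 20.2 and 21.2 in clone 1 and at 64.9 and 56.8 in clone 2, a log2 difference of 1.51 (adjusted p = 0.0106). Ephx1 stood apart in clone 2 and Adh7 in clone 1. Among the glutathione transferases, Gsta4, Gstm2 and Gsto1 were higher in clone 2, by log2 values of 0.57, 0.49 and 0.40. Gclc, the catalytic subunit of the enzyme that starts glutathione synthesis, was higher by 0.36, Adh1 by 0.92 and Akr1c13, an aldo-keto reductase, by 0.48. Gstt1 went the other way, at 114 TPM in the parental line, at 92.4 and 102 in clone 1 and at 53.8 and 53.8 in clone 2 (log2 difference -0.84, adjusted p = 0.0143).

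Of 21 tested genes of complement and epithelial defence, 5 were called higher in clone 2 and 1 lower, beside 2.03% and 1.31% of all tested genes. Of the 21, 4 lay on chromosome 5 or at the start of chromosome 11, where most genes were higher in clone 2. Lcn2, which encodes the iron-scavenging protein lipocalin-2, was at 926 TPM in the parental line, at 717 and 725 in clone 1 and at 1178 and 1069 in clone 2 (log2 difference 0.64, adjusted p = 0.0174). Lbp, the lipopolysaccharide-binding protein, was at 35.2 TPM in the parental line, at 22.8 and 23.9 in clone 1 and at 54.7 and 54.1 in clone 2 (log2 difference 1.19, adjusted p = 0.00890). In both genes the parental line lay between the clones. Cd14, a co-receptor for lipopolysaccharide, was higher in clone 2 by 0.46, Pigr, which carries immunoglobulins across epithelia, by 1.59 and the chemokine Cxcl5 by 1.95. Complement C3 was lower in clone 2, at 102 and 113 TPM against 174 and 164 in clone 1 and 105 in the parental line (log2 difference -0.65, adjusted p = 0.0249). Saa1, Saa2, Saa3, S100a8 and S100a9 were listed at 0 in all 5 samples.

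Interferon response and antigen presentation genes gave 6 called higher in clone 2 and 1 lower of 39 tested, beside 2.03% and 1.31% of all tested genes, with a median of 0.13. Of the 39, 5 lay on chromosome 5 or at the start of chromosome 11, where most genes were higher in clone 2. Ifit3, an interferon-induced RNA-binding protein, was at 24.5 TPM in the parental line, at 14.3 and 13.8 in clone 1 and at 21.1 and 21.1 in clone 2 (log2 difference 0.56, adjusted p = 0.0313). Ifi27 was at 112 TPM in the parental line, at 96.6 and 89.4 in clone 1 and at 135 and 139 in clone 2 (log2 difference 0.56, adjusted p = 0.0214). The others higher in clone 2 were Isg20, Psmb9, an immunoproteasome subunit, and the oligoadenylate synthetase genes Oas1g and Oasl1, both on chromosome 5. Irf9, part of the factor that transmits interferon signals, was lower in clone 2, at 57.3 and 55.6 TPM against 72.3 and 75.9 in clone 1 (log2 difference -0.39, adjusted p = 0.0349).

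Differences between the clones were not spread evenly over the genome. In windows of 40 neighbouring tested genes, 297 windows outside chromosome 5 and the start of chromosome 11 had a median log2 difference between -0.13 and 0.050. All 22 windows of chromosome 5 lay between 0.14 and 0.24, and windows at the start of chromosome 11 reached 0.55. Chromosome 5 held 70 of the 435 called genes (16.1%), the start of chromosome 11 held 42 (9.66%), where 870 and 69 of the 13010 tested genes lay, and 323 called genes (155 higher and 168 lower in clone 2) lay elsewhere. Of the 91 called genes with at least a 2-fold difference, 8 were on chromosome 5, 2 at the start of chromosome 11 and 81 elsewhere. DNA of these cells was not analysed here.

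**Figure D4:**
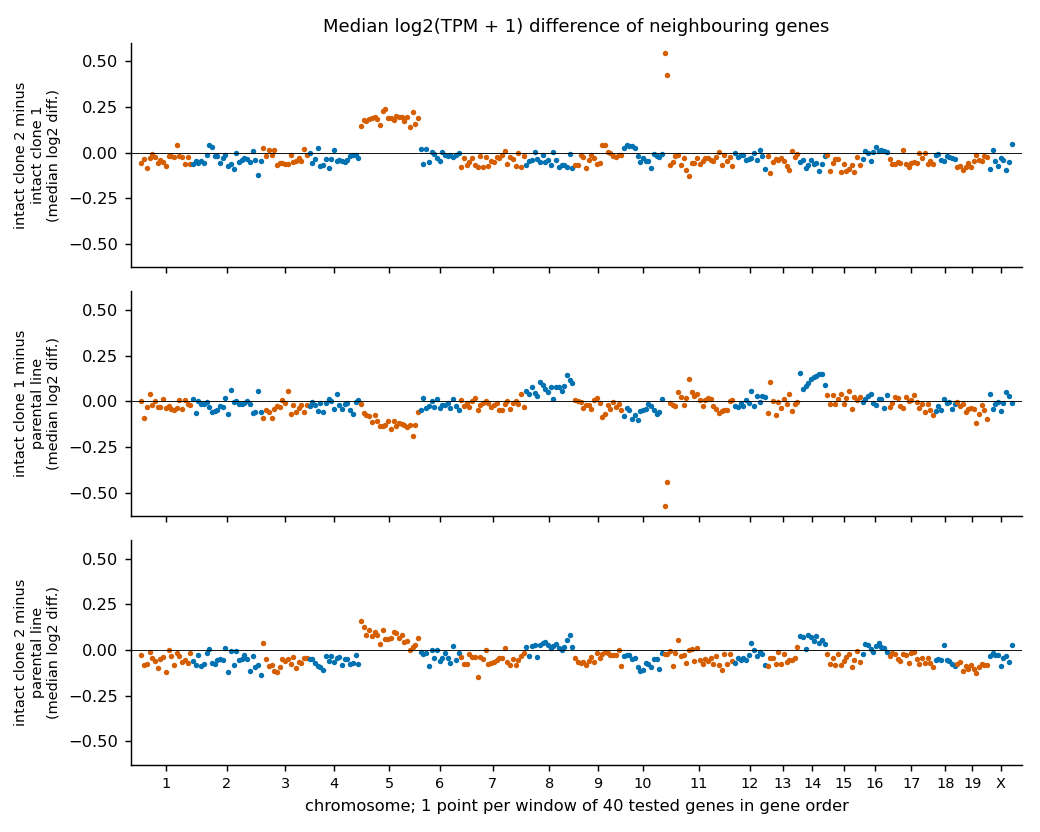
Median log2(TPM + 1) difference of each window of 40 tested genes, in gene order along the chromosomes (horizontal axis), for clone 2 minus clone 1, clone 1 minus the parental line and clone 2 minus the parental line; colours alternate by chromosome. In the top panel chromosome 5 lies above the other chromosomes along its whole length, and 2 windows at the start of chromosome 11 are the highest.

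Along chromosome 5, 755 of 870 tested genes (86.8%) were higher in clone 2, and the median log2 difference was 0.19, with 0.16 to 0.21 in the 4 pairs of samples from different clones. The clones did not overlap, with clone 2 higher, for 578 of these genes (66.4%) and, with clone 2 lower, for 44 (5.06%), beside 21.6% and 30.7% of all tested genes. Limma called 67 higher in clone 2 (7.70%) and 3 lower (0.345%), beside 2.03% and 1.31% of all tested genes. Against the parental line, the median of chromosome 5 was -0.12 in clone 1 and 0.066 in clone 2, so the parental line lay between the clones. Most of the differences were small, as for Igfbp7, a secreted binding protein of growth factors, at 1278 and 1219 TPM in clone 1 and at 1623 and 1548 TPM in clone 2 (log2 difference 0.34, adjusted p = 0.0331). Camkk2, a kinase that activates other calmodulin-dependent kinases, was at 185 TPM in the parental line, at 138 and 148 in clone 1 and at 257 and 238 in clone 2 (log2 difference 0.79, adjusted p = 0.0143). It was the 1 called gene of 14 tested members of the Camk2 and calmodulin list, beside 3.34% of all tested genes and 7.70% called higher on chromosome 5. Sult1d1, Prom1, Cxcl5, Oas1g, Oasl1 and Cldn12, described above, were also on chromosome 5, as was the uroplakin-like gene Upk3bl, with a log2 difference of 0.65. Ppargc1a, a coactivator of mitochondrial genes, was at 17.5 TPM in the parental line, at 1.45 and 1.75 in clone 1 and at 7.56 and 7.13 in clone 2 (log2 difference 1.68, adjusted p = 0.0143). The 3 genes called lower in clone 2 were Hspb1, a small heat shock protein (-0.39), Zcwpw1 (-1.08) and the pseudogene Gm13829, listed at 0 in clone 2.

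At the start of chromosome 11, the first 69 tested genes, up to Tns3, were shifted together. The end of this stretch was set after the window values were seen, between Tns3, with a log2 difference of 0.50, and the next tested gene Hus1, with -0.17. Of the 69 genes, 68 were higher in clone 2, and the clones did not overlap for 63 with clone 2 higher (91.3%) and for 1 with clone 2 lower, beside 21.6% and 30.7% of all tested genes. Limma called 42 higher (60.9%) and 0 lower, beside 2.03% and 1.31% of all tested genes. The median log2 difference was 0.50, and the remaining 979 tested genes of the chromosome had a median of -0.044. Against the parental line, the median of the stretch was -0.57 in clone 1 and -0.020 in clone 2, so here clone 1 stood apart and clone 2 stayed at the parental level. The exception among the 69 was the pseudogene Pisd-ps1, the first in order, at 16.2 and 15.5 TPM in clone 1 and at 14.3 and 15.3 in clone 2.

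**Figure D5:**
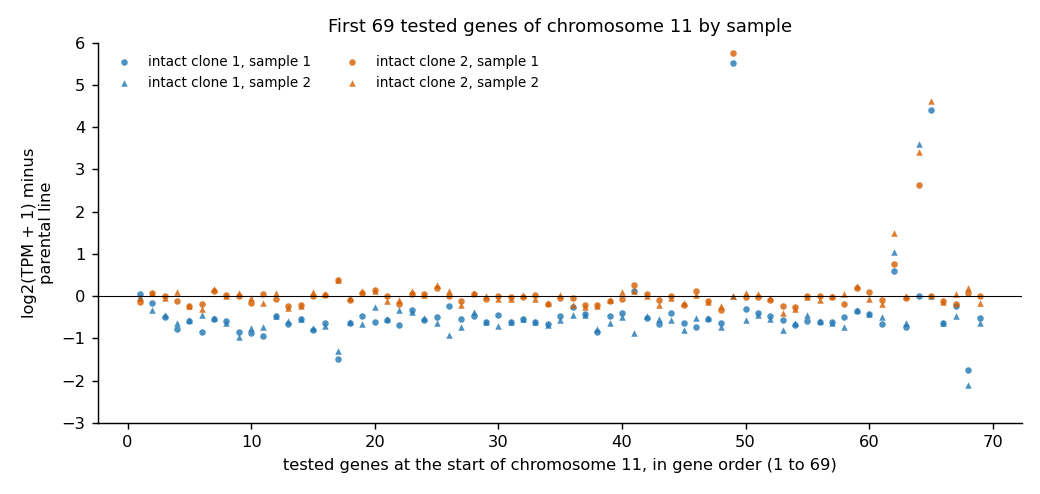
Log2(TPM + 1) of each clone sample minus the parental sample (vertical axis) for the first 69 tested genes of chromosome 11 in gene order (horizontal axis), with blue for intact clone 1 and orange for intact clone 2. Clone 2 points scatter about the parental level (median of the 69 genes -0.020), and most clone 1 points lie below it (median -0.57).

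The stretch held genes of unrelated function. Ppia, the abundant peptidyl-prolyl isomerase cyclophilin A, was at 1714 TPM in the parental line, at 1348 and 1356 in clone 1 and at 1964 and 2037 in clone 2 (log2 difference 0.56, adjusted p = 0.0112). Limk2, a kinase that acts on cofilin, was at 149 TPM in the parental line, at 102 and 103 in clone 1 and at 163 and 167 in clone 2 (log2 difference 0.68, adjusted p = 0.0106). Ogdh, a subunit of the 2-oxoglutarate dehydrogenase complex, was at 128 TPM in the parental line, at 82.7 and 81.7 in clone 1 and at 126 and 127 in clone 2 (log2 difference 0.62, adjusted p = 0.0112). In all 3 genes the parental line was well above clone 1. Uqcr10, a subunit of respiratory complex III, was at 712 TPM in the parental line, at 464 and 461 in clone 1 and at 680 and 716 in clone 2 (log2 difference 0.59, adjusted p = 0.0124). Xbp1, a transcription factor of the unfolded protein response, was at 336 TPM in the parental line, at 234 and 241 in clone 1 and at 349.9 and 336 in clone 2 (log2 difference 0.53, adjusted p = 0.0143). On the list of that response, 2 of 31 tested entries were called (3.34% of all tested genes), Xbp1 and a short second entry with the name Ddit3, which is uncertain. Nf2, which encodes the tumour suppressor merlin, was at 57.8 TPM in the parental line, at 37.2 and 37.3 in clone 1 and at 56.6 and 55.3 in clone 2 (log2 difference 0.58, adjusted p = 0.0155).

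A few genes of the stretch departed further from the rest. Tcn2, the vitamin B12 carrier transcobalamin, was at 39.5 TPM in the parental line, at 13.5 and 15.6 in clone 1 and at 51.5 and 51.6 in clone 2 (log2 difference 1.76, adjusted p = 0.00908). Ramp3, which alters the ligand choice of calcitonin-family receptors, was at 5.36 TPM in the parental line, at 0.90 and 0.47 in clone 1 and at 5.70 and 6.29 in clone 2 (log2 difference 2.06, adjusted p = 0.0174). Ewsr1, an RNA-binding protein, had a smaller difference of 0.19 and did not pass (adjusted p = 0.0653). Camk2b, the beta subunit of the kinase family of the targeted gene, also lay here, at 14.2 TPM in the parental line, at 9.25 and 7.63 in clone 1 and at 11.8 and 10.4 in clone 2. The clones did not overlap for Camk2b, and the log2 difference of 0.36 did not pass (adjusted p = 0.206).

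To show what lay before the starts of genes that differed together, the 250 bases upstream of the RefSeq start (GRCm38.p6) are printed for Sult1d1 on chromosome 5 and for Ramp3, Xbp1 and Ppia at the start of chromosome 11, with each CG dinucleotide in capitals. They were chosen after their values were seen, as genes with 1 listed start and a large or a typical difference. The sequences run 5′ to 3′ on the strand of the gene, which is the minus strand for Sult1d1 (chr5:87569007-87569256) and the plus strand for Ramp3 (chr11:6658283-6658532), Xbp1 (chr11:5520391-5520640) and Ppia (chr11:6415617-6415866).
Sult1d1: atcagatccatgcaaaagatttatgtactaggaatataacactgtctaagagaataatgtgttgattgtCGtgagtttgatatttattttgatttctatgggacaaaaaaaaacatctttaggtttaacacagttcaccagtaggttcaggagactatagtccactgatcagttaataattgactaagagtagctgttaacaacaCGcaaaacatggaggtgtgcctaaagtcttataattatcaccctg
Ramp3: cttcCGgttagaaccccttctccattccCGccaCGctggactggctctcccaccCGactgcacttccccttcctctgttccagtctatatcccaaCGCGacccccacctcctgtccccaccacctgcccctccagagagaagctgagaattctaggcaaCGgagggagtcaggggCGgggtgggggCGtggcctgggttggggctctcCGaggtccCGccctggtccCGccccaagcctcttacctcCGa
Xbp1: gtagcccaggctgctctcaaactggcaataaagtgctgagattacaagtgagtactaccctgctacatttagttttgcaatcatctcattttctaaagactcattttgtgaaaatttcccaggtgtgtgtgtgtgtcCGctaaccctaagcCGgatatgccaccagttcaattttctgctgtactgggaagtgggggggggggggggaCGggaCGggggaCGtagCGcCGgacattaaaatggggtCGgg
Ppia: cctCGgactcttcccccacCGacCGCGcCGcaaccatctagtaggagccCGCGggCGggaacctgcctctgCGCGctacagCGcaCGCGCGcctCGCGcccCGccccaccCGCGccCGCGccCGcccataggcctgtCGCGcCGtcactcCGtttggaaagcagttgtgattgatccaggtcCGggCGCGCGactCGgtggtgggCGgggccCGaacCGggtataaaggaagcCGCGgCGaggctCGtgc

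The 250 bases before Ppia held 38 CG dinucleotides and 72.4% G or C, and those before Ramp3 held 13 and 65.2%. Those before Xbp1 held 8 and 50.4%, and those before Sult1d1 held 2 and 34.0%. A promoter window of 300 bases, with 50 bases after the start, was available with 1 listed start for 7048 tested protein-coding genes (chromosome 18 left out), and 75.4% of these were CpG-rich (G or C of at least 50% and a CG count of at least 0.6 of that given by the base composition). Among the called genes with such a window, 78 of 146 higher in clone 2 (53.4%) and 87 of 111 lower in clone 2 (78.4%) were CpG-rich. Of the 30 called genes with a window and at least a 2-fold difference, 5 were CpG-rich (16.7%). Among all tested genes with a window, called or not, the share was 59.5% of 37 at the start of chromosome 11 and 78.9% of 508 on chromosome 5. The letters TATAAA, on either strand, occurred in 6.26% of all windows, in 19 of the 146 higher in clone 2 and in 5.41% of those lower in clone 2. The cAMP response element TGACGTCA occurred in 3.60% of all windows, in 2.05% of those higher and in 2.7% of those lower in clone 2. The AP-1 motif TGACTCA, on either strand, occurred in 3.12% of all windows, in 4.11% of those higher and in 2.7% of those lower in clone 2.

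Of 9 tested transcripts of the mitochondrial genome, 3 were called higher in clone 2 and 0 lower, beside 2.03% and 1.31% of all tested genes, and the list median was 0.26. The oxidase subunit mt-Co1 was at 1554 TPM in the parental line, at 1147 and 1154 in clone 1 and at 1562 and 1553 in clone 2 (log2 difference 0.44, adjusted p = 0.0125). The complex III subunit mt-Cytb was at 3176 TPM in the parental line, at 2559 and 2494 in clone 1 and at 3323 and 3362 in clone 2 (log2 difference 0.40, adjusted p = 0.0143). The third was mt-Nd4, a subunit of complex I, with a log2 difference of 0.28. The parental line lay with clone 2 for all 3, and the mitochondrial rRNA gene mt-Rnr1 differed by 0.064 and did not pass.

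Counts of called genes on other lists are given beside the 3.34% called over all tested genes (2.03% higher and 1.31% lower in clone 2). Fgf1, a secreted growth factor, was at 24.9 TPM in the parental line, at 15.3 and 17.7 in clone 1 and at 41.0 and 43.0 in clone 2 (log2 difference 1.3, adjusted p = 0.0130). Fgf9 was at 65.7 TPM in the parental line, at 35.6 and 35.6 in clone 1 and at 64.5 and 60.5 in clone 2 (log2 difference 0.79, adjusted p = 0.0125). Clone 1 was thus the lowest line for both. Bmp7, a growth factor of nephron development, was higher in clone 2 by 0.25, and with Igfbp7 these were the 4 called genes of 38 tested in growth factor and Wnt signalling (10.5%). Foxa1, an epithelial transcription factor, was at 36.3 TPM in the parental line, at 28.6 and 25.8 in clone 1 and at 39.3 and 39.0 in clone 2 (log2 difference 0.51, adjusted p = 0.0410), the 1 called gene of 38 tested developmental factors (2.63%), a share near that over all genes. Col4a1 and Col4a2, which encode the chains of basement membrane collagen IV, were lower in clone 2 by -1.03 and -0.83 and were the 2 called genes of 34 tested collagens, laminins and integrins (5.88%). Ptges, the prostaglandin E synthase, was at 18.8 TPM in the parental line, at 31.8 and 37.0 in clone 1 and at 16.3 and 16.4 in clone 2, a log2 difference of -1.03 (adjusted p = 0.0182).

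Some genes that the study compared between Camk2d-KO and Camk2d-intact cells also differed between the intact clones. Gsdmc2, a gasdermin that can form membrane pores, was at 21.8 TPM in the parental line, at 32.2 and 33.1 in clone 1 and at 18.96 and 19.05 in clone 2, a log2 difference of -0.75 (adjusted p = 0.0143). Its near-identical paralogs Gsdmc3 and Gsdmc4 differed by -0.41 and -0.14 and did not pass (adjusted p = 0.163 and 0.554), and reads may be split among the 3 genes. The metal-binding genes Mt1 and Mt2 were lower in clone 2 by -0.36 and -0.37, with Mt1 at 1430 TPM in the parental line, at 1846 and 1902 in clone 1 and at 1440 and 1487 in clone 2 (adjusted p = 0.0225). Alox5ap, which presents arachidonic acid to 5-lipoxygenase, was at 3.98 TPM in the parental line, at 5.69 and 5.06 in clone 1 and at 8.97 and 9.04 in clone 2 and just missed the threshold (log2 difference 0.65, adjusted p = 0.0572). Phldb1 was at 13.6 and 11.2 TPM in clone 1 and at 10.8 and 10.9 in clone 2 (adjusted p = 0.456).

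Several gene groups gave no called gene with limma at the adjusted threshold, which for lists of their size is near the 3.34% over all tested genes. They were the 33 tested genes of cholesterol and fatty acid synthesis (median -0.097), the 30 of glycolysis and hypoxia (median -0.037), the 24 imprinted genes (median -0.014) and the 11 tested genes of X inactivation or with Y-linked partners (median -0.12). The Y-linked partners themselves were listed at 0 in all 5 samples. For cholesterol and fatty acid synthesis, both clone 2 samples nonetheless lay below both clone 1 samples for 14 genes and above them for 0, beside 30.7% and 21.6% of all tested genes. Sesn1 was the 1 called gene of 29 tested p53 targets (log2 difference 0.36), and Sfn the 1 called gene of 17 keratin and cornified envelope genes (-0.34), shares of 3.45% and 5.88% beside the 3.34% over all genes.

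A small set of genes was listed at 0 in both samples of 1 clone and at 1 TPM or more in both of the other, 17 in clone 1 and 18 in clone 2. Most of these were short, with 10 of the 17 and 12 of the 18 under 200 bases in the annotation used here, and they included microRNAs, pseudogenes and the short Ddit3 entry. Gata4, a transcription factor, was listed at 3.06 TPM in the parental line, at 0 in both samples of clone 1 and at 6.86 and 6.43 TPM in clone 2. Fggy, a carbohydrate kinase, was listed at 0.89 TPM in the parental line, at 0 in clone 1 and at 4.45 and 4.31 TPM in clone 2, and it passed the level filter through clone 2. The zinc finger gene Zfp202 was at 2.01 TPM in the parental line, at 1.90 and 1.71 in clone 1 and listed at 0 in clone 2. A second short entry with the name Ddit3 (ENSMUSG00000116429) was listed at 0 in clone 1 and at 30.5 and 22.2 TPM in clone 2, and it is uncertain because it shares its name, and may share reads, with the main gene. Among microRNA genes, Mir568 was at 85.5 TPM in the parental line, at 27.0 and 27.5 in clone 1 and listed at 0 in clone 2.

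Over all tested genes, the median absolute log2 difference from the parental line was 0.109 in both clones. Of the 435 genes called between the clones, the parental value was nearer clone 2 for 258 (59.3%) and nearer clone 1 for 177 (40.7%), beside 49.0% and 51.0% of all tested genes. It lay between the clones for 181 genes nearer clone 2 and 135 genes nearer clone 1, and outside both for 77 genes on the side of clone 2 and 42 on the side of clone 1. These counts include the 42 called genes at the start of chromosome 11, where the median against the parental line was -0.57 in clone 1 and -0.020 in clone 2. Tmem213, a membrane protein, was an example of a parental value between the clones and nearer clone 2. It was at 111 TPM in the parental line, at 64.0 and 65.2 in clone 1 and at 136 and 137 in clone 2. For Kat2a, a histone acetyltransferase, clone 2 stood apart, at 49.2 TPM in the parental line, at 48.6 and 48.3 in clone 1 and at 29.7 and 30.0 in clone 2. For Sh3kbp1, an adaptor of receptor endocytosis on the X chromosome, clone 1 stood apart, at 21.8 TPM in the parental line, at 6.08 and 5.68 in clone 1 and at 19.8 and 21.1 in clone 2. Among the 91 genes with at least a 2-fold difference, 48 were nearer clone 1 and 43 nearer clone 2. The parental line was a single sample, so its own error could not be measured.

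Against the parental line directly, limma called 22 genes higher (0.169%) and 84 lower (0.646%) in clone 1, or 0.815% of those tested, and 68 genes in clone 2 (0.523%), 26 higher (0.2%) and 42 lower (0.323%). Both comparisons use the same single parental sample, which limma assumes to vary as the clone samples do. With either clone 2 sample left out, limma called 0 genes in clone 1 (75 and 35 without clone 1 sample 1 or sample 2), and with any clone sample left out it called 0 in clone 2. Rhcg, an ammonia transporter of the collecting duct, was at 88.8 TPM in the parental line, at 0.69 and 0.67 in clone 1 and at 0.33 and 0.27 in clone 2. Both clones were thus close to 0 for Rhcg, with log2 differences from the single parental sample of -5.74 and -6.11. On chromosome 14, which did not stand out between the clones (median -0.059), the median against the parental line was 0.12 in clone 1 and 0.055 in clone 2, and on chromosome 8 it was 0.074 and 0.021.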

How the data were processed

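RNA was measured in 10 samples, of which the 5 Camk2d-intact ones were used; 5 Camk2d-KO columns were not used, and 0 other columns were left over. The authors made full-length cDNA libraries, aligned 50-bp read pairs by STAR (mouse genome, Ensembl genes) and ran RSEM for gene levels. Per the file headers and values, the authors deposited TPM with 2 decimals, which sum to the same total in every sample, so depth is unknown and no counting interval is given.

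Genes with a mean of at least 1 TPM over the 5 samples were transformed as log2(TPM + 1), which understates the change of low genes, and fitted in 3 groups (clone 1, clone 2, parental line) with limma 3.58.1 in R 4.3.3 (lmFit, eBayes with trend) and Benjamini-Hochberg adjustment over all 13010 genes, at a threshold of 0.05. A log2 difference is clone 2 minus clone 1 unless stated. The p-values measure the spread between these samples, which may be technical. The procedure was tested on simulated data. Python 3.11.15 with pandas 2.3.3 and matplotlib 3.10.9 served for summaries and plots. Gene order, chromosome, type and length came from GENCODE M21 (GRCm38), matched by Ensembl ID for 12880 of the tested genes, since the table holds no positions. Promoters are those of RefSeq on GRCm38.p6.

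The members and the 31 gene lists were chosen with earlier results of these data known. Genes are named by a rule: those the study names, up to 10 with the largest difference in each direction, up to 4 called members of each list with the smallest adjusted p (or the 2 with the largest difference), up to 5 listed at 0 in 1 clone, up to 4 in each direction against the parental line, up to 3 per chromosome described and up to 5 per position of the parental line. Genes outside it, such as Ramp3, Sult1c2, Enox2, Ppargc1a, Zfp202, Nf2, Ewsr1, Zcwpw1, marker genes and further list members, were chosen after their values were seen. Samples of a clone shared about 1% of identical values and were counted as separate. Alternatives covered the pseudocount, level filter, scaling, variance moderation, threshold, replicate block and each sample left out. Some genes are not reported here by name.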

Additional observations from a re-analysis of the deposited data

How the results depend on the processing

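The 435 genes called between the clones kept their direction in every alternative that tested them. They had been selected on these same samples, so their direction could hardly change, and it gives no support. The number called depended on the spread estimate. Limma called 0 genes (0 higher, 0 lower) with all genes above 0 TPM included (3619 at an unadjusted p under 0.05), and 0 with a replicate block (2352 at an unadjusted p under 0.05, smallest adjusted p 0.0572). Deviations of same-numbered samples had a correlation of -0.0043 across genes, which cannot tell whether same-numbered samples shared a batch. The fit with a replicate block left 1 residual degree of freedom. Limma called 97 genes (60 higher, 37 lower) without trend, 912 (520, 392) with robust moderation and 778 (433, 345) at a mean of at least 5 TPM. It called 1086 (593, 493) at an adjusted p under 0.1 and 91 (59, 32) with at least a 2-fold difference. Without transcripts under 200 bases, a setting chosen after seeing the data, it called 721 (423, 298). With 1 sample left out, the range was 0 to 431 genes (0 to 264 higher, 0 to 167 lower), with 48 (4, 44) without clone 1 sample 1, 41 (2, 39) without clone 1 sample 2, where lower calls outnumbered higher ones, and 0 without either clone 2 sample.

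Against the parental line, clone 1 gave 62 genes with a pseudocount of 0.1, 223 with all genes above 0, 185 at a mean of at least 5 TPM, 42 without trend, 266 with robust moderation, 165 without short transcripts, 213 at an adjusted p under 0.1, 59 with at least a 2-fold difference and 0 to 75 with 1 sample left out. Clone 2 gave 11, 196 and 143 with a pseudocount of 0.1, all genes above 0 and robust moderation, 108 at an adjusted p under 0.1, and 0 with any 1 clone sample left out. The median of chromosome 5 was 0.21 after rescaling by median ratios, and that of the start of chromosome 11 was 0.53 both after that rescaling and as a log2 ratio of mean TPM (added after seeing the data, as was leaving out samples here), and 0.50 to 0.54 with 1 sample left out.

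Of 2111 alternative values for 120 named genes, 5 changed sign, none of them in a called gene, as those were selected on the same samples. These were Camk2g (-0.021 to 0.62 over the single samples left out), Aqp2 (-0.086 with quantile normalization and -0.013 to 0.14 with 1 sample left out), Gsdmc4 (-0.29 to 0.0081) and Podxl (-0.0031 to 0.16). Called genes made up 1.97% of tested genes with a mean up to 7.498 TPM and 5.41% of those from 74.95 TPM.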
